A study of Mus musculus with 407 samples.

Results

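The troponin and tropomyosin genes of striated muscle were described across 4 muscles and 6 ages of the mouse. They were chosen by gene symbol: Tnni1, Tnni2, Tnnt1, Tnnt2, Tnnt3, Tnnc1, Tnnc2, Tpm1, Tpm2 and Tpm3 are 10 of the 24458 gene symbols in the count tables. Total RNA was sequenced from diaphragm, gastrocnemius, soleus and tibialis anterior of female and male C57BL/6J mice in 407 libraries with 6 to 10 for each muscle, sex and age. The youngest mice were 6 months old and the others 12, 18, 21, 24 or 27. At 6 months every muscle and sex had 8 libraries, and at 27 months it had 10. The animals carried no labelled allele or treatment, so the groups differed in muscle, sex and age. The mice were bought at several ages and held for about 12 weeks, and the tissues of an age group were taken on the same day, so age and collection day cannot be told apart. A replicate was the muscle of 1 mouse.

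Troponin is the calcium switch of the sarcomere. Troponin C binds calcium, troponin I blocks the contact of myosin with actin at rest, and troponin T ties the complex to tropomyosin, a coiled rod that lies along the actin filament. Slow and fast fibres use different genes: Tnni1, Tnnt1, Tnnc1 and the muscle product of Tpm3 are known from slow fibres, Tnni2, Tnnt3, Tnnc2 and Tpm1 from fast fibres and Tpm2 from both, while Tnnt2 encodes the troponin T of the heart and of developing skeletal muscle.

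Counts on genes per library ran from 38583802 to 300089909 with a median of 72766895, and the library below the deepest had 104836980. Levels are given in CPM, counts brought to a common library total with edgeR's TMM factors over all libraries, and each member had at least 1 count in every library. The fibre markers matched the muscle labels: median Myh7, the slow myosin heavy chain, was 6210 CPM in soleus, 604 CPM in diaphragm, 413 CPM in gastrocnemius and 2.55 CPM in tibialis anterior. Median Myh4, the fastest myosin heavy chain, was 40300 CPM in gastrocnemius and 109 CPM in soleus. The cardiac markers Myl7 and Nppa had a median of 0 CPM in the 3 limb muscles. Myh6, another gene of the cardiac list, had medians of 7.01 CPM in soleus, 2.88 CPM in tibialis anterior and 1.02 CPM in gastrocnemius. Some diaphragm libraries stood apart. In 2 male ones 8 liver genes took over 1% of all counts, 3.49% in replicate 3 at 21 months and 1.19% in replicate 6 at 27 months. In 6 diaphragm libraries, 1 of them among these 2, skeletal actin Acta1 was more than 3 times below the median for the sex, down to 105.6 CPM against 4665 CPM in male replicate 2 at 6 months. Changes of a member with age called in diaphragm, and differences of a member from diaphragm that leaving these libraries out moves past the threshold, are therefore given with and without them. In whole muscle, fewer fibres of a type and less RNA per fibre cannot be told apart.

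Promoter windows, the 250 bases before an annotated transcription start, were taken from RefSeq on GRCm38.p6 for 8 of the 10 genes. Tnni2 and Tnnt3 had no entry. The window of Tnnc1, a slow gene, and a window of Tnnt2, the rarest member, are shown because both hold an M-CAT element close to the start. They are written 5′ to 3′ with capitals at each match, on either strand, to the E-box CANNTG, bound by myogenic factors, and to the M-CAT element CATTCC, bound by Tead factors.
Tnnc1, chr14:31208062-31208311, plus strand: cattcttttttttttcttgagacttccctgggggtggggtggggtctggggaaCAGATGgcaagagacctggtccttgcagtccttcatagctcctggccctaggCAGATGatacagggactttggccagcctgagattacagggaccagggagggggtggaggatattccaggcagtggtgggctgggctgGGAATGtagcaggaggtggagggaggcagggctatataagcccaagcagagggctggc
Tnnt2, chr1:135836084-135836333, plus strand: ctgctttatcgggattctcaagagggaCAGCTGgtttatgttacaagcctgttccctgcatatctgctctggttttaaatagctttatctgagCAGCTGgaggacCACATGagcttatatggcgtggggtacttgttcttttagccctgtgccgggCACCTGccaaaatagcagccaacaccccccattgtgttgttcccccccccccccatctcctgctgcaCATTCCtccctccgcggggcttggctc
The E-box occurred in 66.2% and the M-CAT in 12.6% of 32851 RefSeq windows of this length. The M-CAT letters lay 58 to 53 bases before the start in Tnnc1 and 27 to 22 bases before it in Tnnt2. Tnnt2 has another annotated start, and the window before that one held 1 E-box and no M-CAT. Tpm1 was the other member with an M-CAT, 56 to 51 bases before the start, and the windows of Tnni1, Tnnt1, Tnnc2, Tpm2 and Tpm3 held E-boxes alone. The MEF2 and CArG motifs, present in 2.92% and 1.47% of all windows, were found in no member window. A match is a run of letters and says nothing about binding. Troponin I and troponin T genes lie in pairs: Tnni1 and Tnnt2 are 25364 bases apart on chromosome 1, Tnni2 and Tnnt3 are 54425 bases apart on chromosome 7, and Tnnt1 lies 1922 bases from the cardiac gene Tnni3 on chromosome 7.

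The slow troponins were highest in soleus. Tnni1, the slow inhibitory subunit, measured 416 to 775 CPM (median 574) in female soleus at 6 months. It measured 24.7 to 45.1 CPM (median 40.4) in gastrocnemius, 6.57 to 52.0 CPM (median 28.8) in diaphragm and 0.605 to 1.64 CPM (median 1.33) in tibialis anterior. Soleus and tibialis anterior overlapped with no other muscle, and gastrocnemius and diaphragm overlapped with each other. In males Tnni1 measured 334 to 587 CPM (median 405) in soleus, 0.887 to 49.5 CPM (median 33.0) in diaphragm, 10.8 to 23.1 CPM (median 16.4) in gastrocnemius and 0.360 to 1.22 CPM (median 0.664) in tibialis anterior. The low end of the male diaphragm, 0.887 CPM, was inside the range of tibialis anterior and came from replicate 2, the library with the lowest Acta1. The log2 difference of tibialis anterior from soleus was -8.85 ± 0.41 in females (estimate ± standard error, edgeR adjusted p = 4.18e-50) and -9.23 ± 0.34 in males (adjusted p = 1.3e-63).

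Tnnt1, the slow troponin T, and Tnnc1, the troponin C of slow fibres and heart, had the same first and last muscle. Tnnt1 averaged 808 ± 170.4 CPM (SD, n = 8) in female soleus, 80.2 ± 29.7 CPM in diaphragm, 62.5 ± 12.9 CPM in gastrocnemius and 2.11 ± 0.465 CPM in tibialis anterior. Tnnc1 averaged 583 ± 117 CPM in female soleus, 36.1 ± 13.4 CPM in diaphragm, 33.8 ± 6.43 CPM in gastrocnemius and 1.21 ± 0.601 CPM in tibialis anterior. Between the middle muscles of females, gastrocnemius minus diaphragm, none of the 3 slow troponins passed the test: Tnni1 stood at 0.25 ± 0.29, Tnnt1 at -0.37 ± 0.25 and Tnnc1 at -0.11 ± 0.27 on the log2 scale. In males all 3 were lower in gastrocnemius, with Tnni1 at -0.85 ± 0.23, Tnnt1 at -1.30 ± 0.18 and Tnnc1 at -1.31 ± 0.20. Without the libraries low in Acta1 these became -1.04 ± 0.20, -1.41 ± 0.18 and -1.45 ± 0.19, and without the liver-rich ones -1.02 ± 0.23, -1.46 ± 0.18 and -1.47 ± 0.19, all still called. By limma-voom Tnni1 did not pass the test (-0.52, adjusted p = 0.065). With DESeq2's size factors the median over all genes shifted by -0.20 in this male comparison, by -0.15 in soleus minus diaphragm and by -0.24 in tibialis anterior minus diaphragm, and the members shifted by about as much.

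The fast troponins were high in gastrocnemius and tibialis anterior, and they spanned fewer log2 units between muscles than the slow ones. Tnnt3, the fast troponin T, measured 6022 to 7064 CPM (median 6431) in female gastrocnemius and 5882 to 6904 CPM (median 6159) in tibialis anterior, against 1278 to 2089.6 CPM (median 1714) in soleus and 1136 to 3058 CPM (median 2023) in diaphragm. The first 2 muscles overlapped with each other and with neither of the others. Tnnc2, the calcium sensor of fast fibres, averaged 2012 ± 143 CPM in female gastrocnemius and 325 ± 45.3 CPM in soleus, and soleus minus gastrocnemius was -2.62 ± 0.11 on the log2 scale (adjusted p = 7.38e-53). Tnni2, the fast inhibitory subunit, differed by -2.07 ± 0.11 between the same muscles. Between soleus and diaphragm the female differences of Tnni2 (-0.06 ± 0.11) and Tnnc2 (-0.10 ± 0.11) did not pass the test. Female Tnnt3 was lower in soleus by this comparison (-0.31 ± 0.11, adjusted p = 0.00857), but not without the diaphragm libraries low in Acta1 (-0.20 ± 0.10, adjusted p = 0.0598). In males Tnni2 was higher in soleus than in diaphragm (0.42 ± 0.13, adjusted p = 0.00337), but not where no filter on low counts was used (0.28, adjusted p = 0.0619), and Tnnc2 (0.27 ± 0.12) and Tnnt3 (0.15 ± 0.10) did not pass the test.

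The 3 tropomyosins had 3 patterns. Tpm3 went with the slow troponins, with 1905 ± 349 CPM in female soleus and 34.0 ± 1.91 CPM in tibialis anterior, a log2 difference of -5.82 ± 0.14 for tibialis anterior minus soleus. Tpm3-rs7 is a near copy of this gene, and how their shared reads were counted is unknown from the sources used here, so the level of Tpm3 is uncertain. Counts per gene also do not separate the muscle product of Tpm3 from any other product of the gene. Tpm1 went with the fast troponins, with 3825 ± 308 CPM in gastrocnemius, 3450.5 ± 453 CPM in tibialis anterior, 534 ± 148 CPM in diaphragm and 524 ± 82.8 CPM in soleus of females, and the last pair differed by -0.03 ± 0.11 (soleus minus diaphragm, adjusted p = 0.848). In males Tpm1 was higher in soleus by 0.50 ± 0.12 (adjusted p = 0.000138), and by 0.37 ± 0.11 without the liver-rich libraries. Tpm2 was abundant in every muscle, from 1563 ± 644 CPM in female diaphragm through 2448 ± 179 CPM in gastrocnemius and 3945 ± 169 CPM in tibialis anterior to 4485 ± 486 CPM in soleus. Tibialis anterior minus soleus was -0.20 ± 0.12 for Tpm2 in females (adjusted p = 0.155) and -0.37 ± 0.12 in males (adjusted p = 0.00607).

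Tnnt2, the cardiac and developmental troponin T, was the rarest member. In females it measured 1.22 to 2.65 CPM (median 2.01) in soleus, 0.521 to 0.800 CPM (median 0.662) in tibialis anterior, 0.264 to 0.771 CPM (median 0.449) in gastrocnemius and 0.0487 to 1.18 CPM (median 0.306) in diaphragm. Every female soleus library lay above every other female library at 6 months in Tnnt2, and the other 3 muscles overlapped. Soleus minus gastrocnemius was 2.13 ± 0.26 on the log2 scale in females and 1.53 ± 0.31 in males. Its neighbour Tnni1 was also highest in soleus, but tibialis anterior minus gastrocnemius was -4.90 ± 0.35 for Tnni1 and 0.48 ± 0.26 for Tnnt2 in females.

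**Figure D1:**
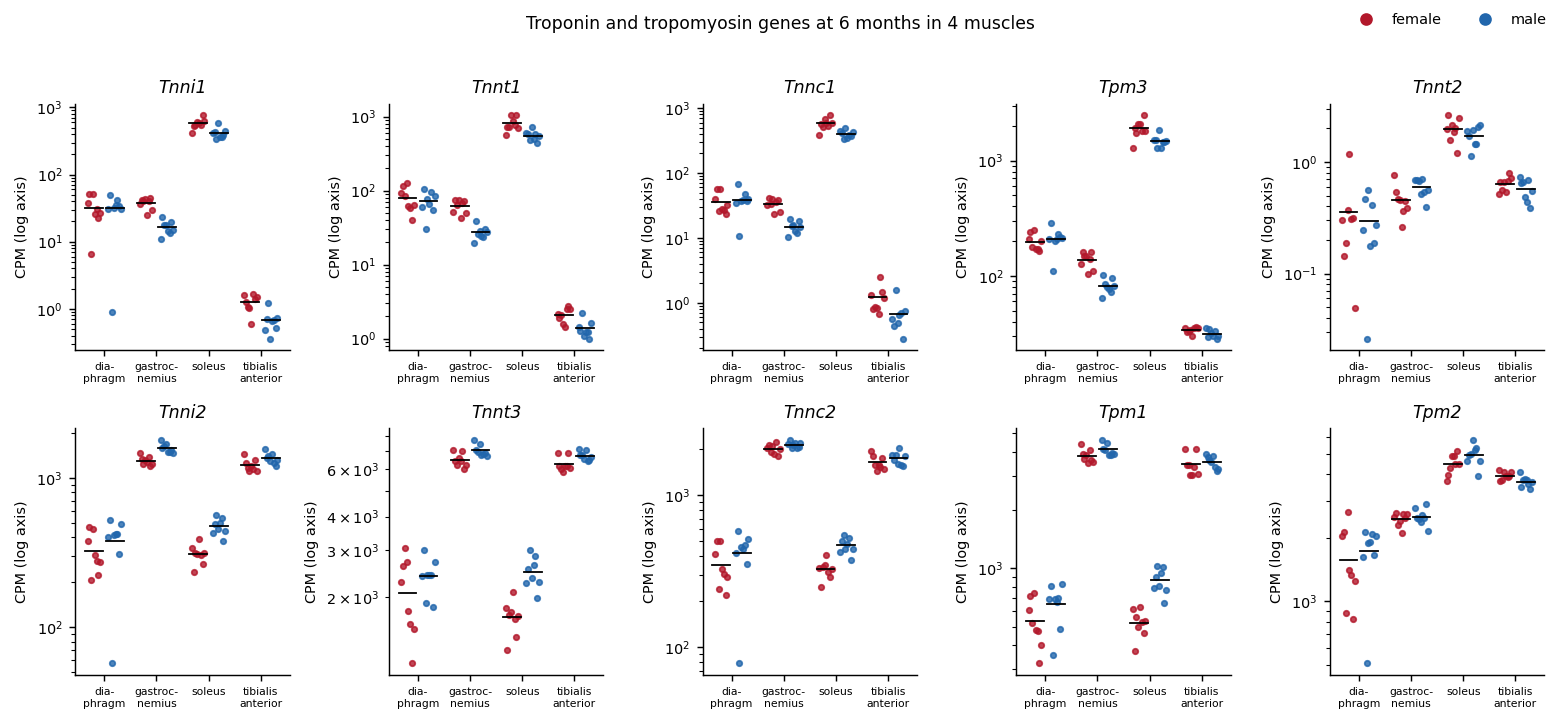
Levels of the 10 genes at 6 months in CPM on a log axis, for diaphragm, gastrocnemius, soleus and tibialis anterior. Each point is 1 library, red for female and blue for male, and the black lines are means of 8 libraries. Tnni1, Tnnt1, Tnnc1 and Tpm3 are highest in soleus and lowest in tibialis anterior, Tnni2, Tnnt3, Tnnc2 and Tpm1 are high in gastrocnemius and tibialis anterior, and Tpm2 is highest in soleus.

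The members called between muscles (edgeR adjusted p below 0.05 over all genes tested) are set beside the percent of all genes called, which ran from 14.2% to 74.3%. In females 10 of 10 were called between soleus and gastrocnemius (49.2% of 17027 genes), 9 between tibialis anterior and soleus (55.4%), 10 between tibialis anterior and diaphragm (74.3%) and 7 between soleus and diaphragm (59.4%). Between gastrocnemius and diaphragm 6 were called (71.5%), and between tibialis anterior and gastrocnemius 6 (17.2%). In males the counts were 10 between soleus and gastrocnemius (45.1% of 17005 genes), 10 between tibialis anterior and soleus (45.4%), 10 between tibialis anterior and diaphragm (65.6%), 8 between soleus and diaphragm (52.5%), 10 between gastrocnemius and diaphragm (64.1%) and 5 between tibialis anterior and gastrocnemius (14.2%). Tibialis anterior and gastrocnemius, both fast muscles, differed in Tnni1, Tnnt1, Tnnc1, Tpm3 and Tpm2 in both sexes, and in Tnnc2 in females (-0.29 ± 0.11, adjusted p = 0.0434).

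Other contractile genes split the same way between soleus and gastrocnemius. All 9 other slow fibre genes were higher in soleus in both sexes, with a median log2 difference of 3.64 in females and 3.77 in males against 0.10 and -0.0004 over all genes. Of 11 other fast fibre genes 10 were lower and 1 higher in soleus in females (median -2.90), and 9 were lower and 2 higher in males (median -2.44). Of 16 partners of the thin filament, such as the pointed-end cap Tmod1 and the filament-lengthening Lmod2, 6 were higher and 7 lower in each sex.

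Levels of different genes were compared per kilobase of exon. At 6 months Tnnt3 was first of the 10 in 7 of the 8 groups of muscle and sex, and Tnnt2 was last in all 8. In female gastrocnemius Tnnt3 stood at 5580 ± 317 CPM per kilobase, then Tnnc2 at 2870 ± 205, Tnni2 at 1500 ± 101, Tpm2 at 1030 ± 75.3 and Tpm1 at 800 ± 64.4. The slow genes followed there far below, with Tnnt1 at 58.0 ± 11.9, Tnnc1 at 46.8 ± 8.92, Tpm3 at 41.4 ± 6.66 and Tnni1 at 29.7 ± 5.57, and neighbours among Tnnt1, Tnnc1 and Tpm3 lay within 1 SD of each other. In female soleus Tpm2 came first at 1880 ± 204, then Tnnt3 at 1440 ± 211 and Tnnc1 next at 809 ± 162, which lay within 1 SD of Tnnt1 at 749 ± 158. In male soleus Tnnt3 (2140 ± 285) and Tpm2 (2080 ± 237) lay within 1 SD of each other. The order depends on the length: Tpm1 has 4780 exon bases and 978 coding bases, and per kilobase of coding sequence it stood at 3910 in female gastrocnemius, above Tpm2 at 2870 and Tnni2 at 2400.

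The slow share of a subunit within a library does not depend on scaling between libraries. Tnni1 was 56.1 ± 6.22% of Tnni1 and Tnni2 per exon length in female soleus (mean ± SD, n = 8), 6.00 ± 1.67% in diaphragm, 1.94 ± 0.386% in gastrocnemius and 0.0709 ± 0.0195% in tibialis anterior. In males the share was 37.7 ± 5.92%, 5.00 ± 1.84%, 0.709 ± 0.172% and 0.0339 ± 0.0124% in the same muscles. Tnnc1 made up 63.1 ± 6.09% of troponin C in female soleus, Tnnt1 34.2 ± 5.96% of Tnnt1 and Tnnt3, and Tpm3 22.2 ± 2.08% of the 3 tropomyosins. All 4 shares put soleus first, then diaphragm, gastrocnemius and tibialis anterior, in both sexes.

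The sexes differed at 6 months in gastrocnemius and soleus. In gastrocnemius Tnni1 measured 24.7 to 45.1 CPM in females and 10.8 to 23.1 CPM in males, Tnnt1 42.1 to 75.4 CPM and 19.5 to 38.3 CPM, and Tnnc1 23.6 to 41.4 CPM and 10.3 to 19.3 CPM. None of these ranges overlapped. Male minus female was -1.21 ± 0.19 for Tnni1 (adjusted p = 3.79e-07), -1.22 ± 0.17 for Tnnt1, -1.21 ± 0.18 for Tnnc1 and -0.76 ± 0.11 for Tpm3, while the fast Tnni2 was higher in males at 0.27 ± 0.06. The ranges of Tpm3 and Tnni2 did not overlap either. These 5 calls of 10 stand beside 19.8% of 15732 genes. In soleus 8 of 10 were called beside 8.41% of 15903 genes. There Tnni1 (-0.49 ± 0.13), Tnnt1 (-0.56 ± 0.12), Tnnc1 (-0.55 ± 0.12) and Tpm3 (-0.38 ± 0.10) were lower in males, and Tnni2 (0.60 ± 0.10), Tnnt3 (0.55 ± 0.10), Tnnc2 (0.50 ± 0.10) and Tpm1 (0.70 ± 0.11) were higher. The ranges of the sexes overlapped for Tnni1 in soleus, at 416 to 775 CPM in females and 334 to 587 CPM in males. Tpm2 (0.12 ± 0.07) and Tnnt2 (-0.23 ± 0.27) did not pass the test. No member passed it in diaphragm (0.512% of genes) or tibialis anterior (13.6%), where Tnni1 stood at -0.91 ± 0.42 and Tnnt1 at -0.61 ± 0.38. At an unadjusted p below 0.05 none passed in diaphragm and 3 in tibialis anterior (Tnni1, Tnni2 and Tnnt3), and limma-voom and DESeq2 called none.

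With age the members changed most often in gastrocnemius. At 27 against 6 months 9 of 10 were called in females, 5 higher and 4 lower (29.3% of 15376 genes called, 14.6% higher and 14.6% lower), and 8 in males, 4 higher and 4 lower (23.3% of 15227 genes, 10.6% higher and 12.6% lower). The count was 4 in female tibialis anterior (21.9%), 1 in male tibialis anterior (17.8%), 1 in female soleus (18.8%), 1 in male diaphragm (8.65%) and 0 in male soleus (2.85%) and female diaphragm (1.61%). At 12 months no member was called in any of the 8 groups, where the share of all genes called was 0.0%, 0.579%, 0.221% and 0.527% in diaphragm, gastrocnemius, soleus and tibialis anterior of females and 0.0622%, 1.08%, 0.117% and 0.338% in those of males. Nor was a member called in female diaphragm at 18 (0.222%), 21 (1.53%) or 24 months (3.33%), in male diaphragm at 18 (0.199%) or 24 months (1.27%), in male soleus at 18 (0.489%), 21 (1.37%) or 24 months (4.46%), or in male tibialis anterior at 18 (1.93%) or 21 months (6.78%). At an unadjusted p below 0.05 no member passed at 27 months in male soleus or female diaphragm, and at 12 months 4 did in female gastrocnemius, 2 in female soleus and 1 in female tibialis anterior. Tnnt2 passed it in female diaphragm at 18, 21 and 24 months, with Tnnt1 at 21 and 24 months and Tnnc2 at 24 months, and in male diaphragm at 18 and 24 months. By limma-voom no member was called in any of these comparisons, and by DESeq2 Tnni1 was in female gastrocnemius at 12 months and Tnnt2 in male diaphragm at 24 months. All older ages of a muscle and sex share their 6-month libraries.

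**Figure D2:**
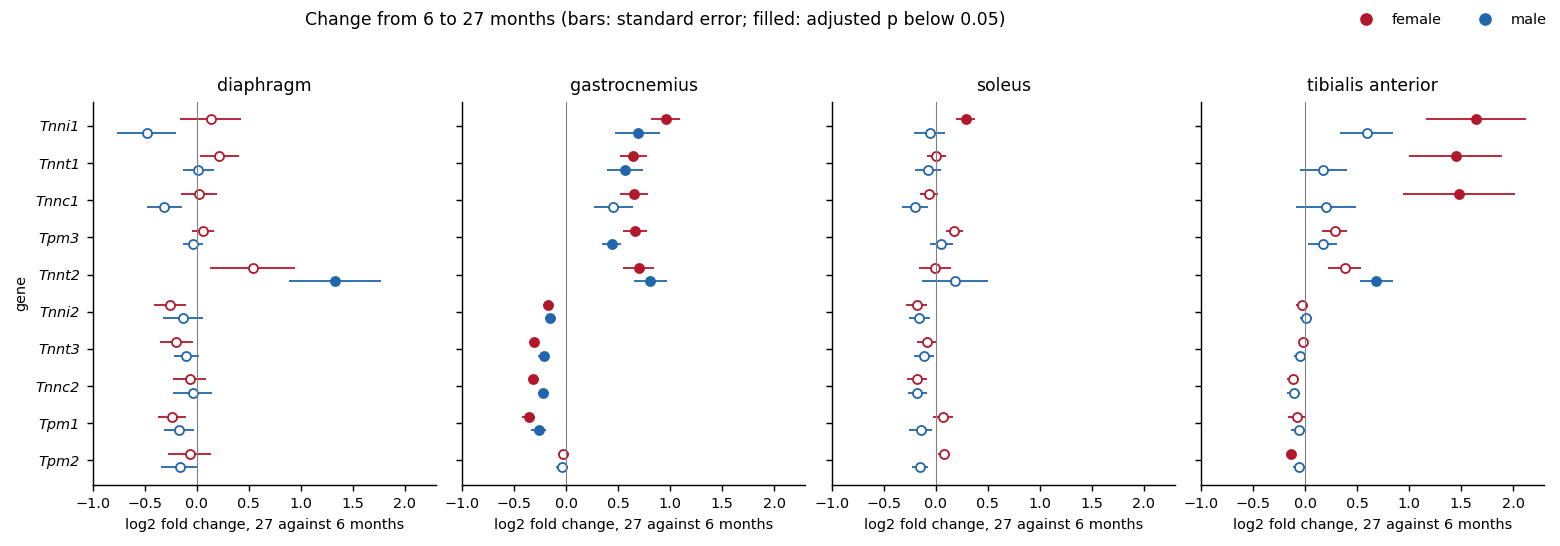
Log2 fold change from 6 to 27 months of the 10 genes in each muscle, red for female and blue for male. Bars are standard errors and filled points had an adjusted p below 0.05. In gastrocnemius the slow genes and Tnnt2 lie right of 0 and the fast genes left of it, and the largest changes of the slow troponins are those of female tibialis anterior.

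In female gastrocnemius the slow genes rose. Tnni1 went from 24.7 to 45.1 CPM (median 40.4) at 6 months to 49.4 to 102 CPM (median 73.3) at 27 months, without overlap, a 1.94-fold change (log2 0.96 ± 0.14, adjusted p = 5.13e-07). Tnnt1 went from 42.1 to 75.4 CPM (median 66.6) to 68.8 to 139 CPM (median 95.4), with overlap (log2 0.64 ± 0.13, adjusted p = 0.000136). Tnnc1 went from 23.6 to 41.4 CPM (median 34.7) to 36.8 to 81.1 CPM (median 48.9) (log2 0.65 ± 0.14), and Tpm3 from 103 to 161 CPM (median 144) to 139.6 to 312 CPM (median 211) (log2 0.66 ± 0.12, adjusted p = 2.23e-05), both with overlap. These 4 genes were called from 18 months on, when Tnni1 stood 0.68, Tnnc1 0.61, Tnnt1 0.58 and Tpm3 0.50 log2 units above 6 months. The members called numbered 5 at 18 months (9.6% of genes), 10 at 21 months (15.8%) and 9 at 24 months (19.2%).

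In male gastrocnemius the slow genes started lower. Tnni1 went from 10.8 to 23.1 CPM (median 16.4) to 11.0 to 44.8 CPM (median 26.9), so the lowest old library lay within the young range (log2 0.69 ± 0.21, adjusted p = 0.0151). By limma-voom the change of Tnni1 was 0.57 and did not pass the test (adjusted p = 0.0531). Tnnt1 rose by 0.57 ± 0.18 and Tpm3 by 0.44 ± 0.09 (adjusted p = 0.000439). Tnnc1 went from 10.3 to 19.3 CPM (median 15.0) to 10.1 to 32.5 CPM (median 19.6) and did not pass the test at 27 months (log2 0.45 ± 0.19, adjusted p = 0.0741), but did at 21 months (0.63, adjusted p = 0.0321). The members called numbered 0 at 18 months (2.99% of genes), 5 at 21 months (10.2%) and 8 at 24 months (14.6%). None passed an unadjusted p below 0.05 at 18 months, and limma-voom and DESeq2 called none there. The interaction of sex and age at 27 months was called for no member in diaphragm, gastrocnemius, soleus or tibialis anterior, where 0.0%, 1.6%, 0.855% and 1.73% of genes were called. At an unadjusted p below 0.05 the number was 0, 0, 1 and 2 in the same order, and limma-voom and DESeq2 called none. For Tnni1 in gastrocnemius the male change minus the female change was -0.25 ± 0.25.

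The fast genes fell in gastrocnemius of both sexes, by less than 1.5-fold each. Tnnt3 went from 6022 to 7064 CPM (median 6431) to 4176 to 5884 CPM (median 5126) in females, without overlap (log2 -0.31 ± 0.05, adjusted p = 5.81e-06). In males it went from 6742 to 7737 CPM (median 6923) to 5262 to 7037 CPM (median 5986), with overlap (log2 -0.22 ± 0.05, adjusted p = 0.00199). Tpm1 went from 3493 to 4411 CPM (median 3762) to 2394 to 3402 CPM (median 2958) in females, also without overlap (log2 -0.36 ± 0.06), and changed by -0.26 ± 0.07 in males. Tnnc2 changed by -0.32 ± 0.05 in females and -0.22 ± 0.05 in males. Tnni2 changed by -0.18 ± 0.05 in females and -0.15 ± 0.06 in males (adjusted p = 0.0401). The male call of Tnni2 was lost in 11 of 18 fits that each left out 1 library, with adjusted p up to 0.196 without replicate 0 at 6 months, and by DESeq2 (adjusted p = 0.0727). Tpm2 stood at -0.03 ± 0.05 and -0.04 ± 0.06 and did not pass the test at 27 months, although it was lower at 18, 21 and 24 months in females (-0.16, -0.19 and -0.15) and at 24 months in males (-0.18).

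**Figure D3:**
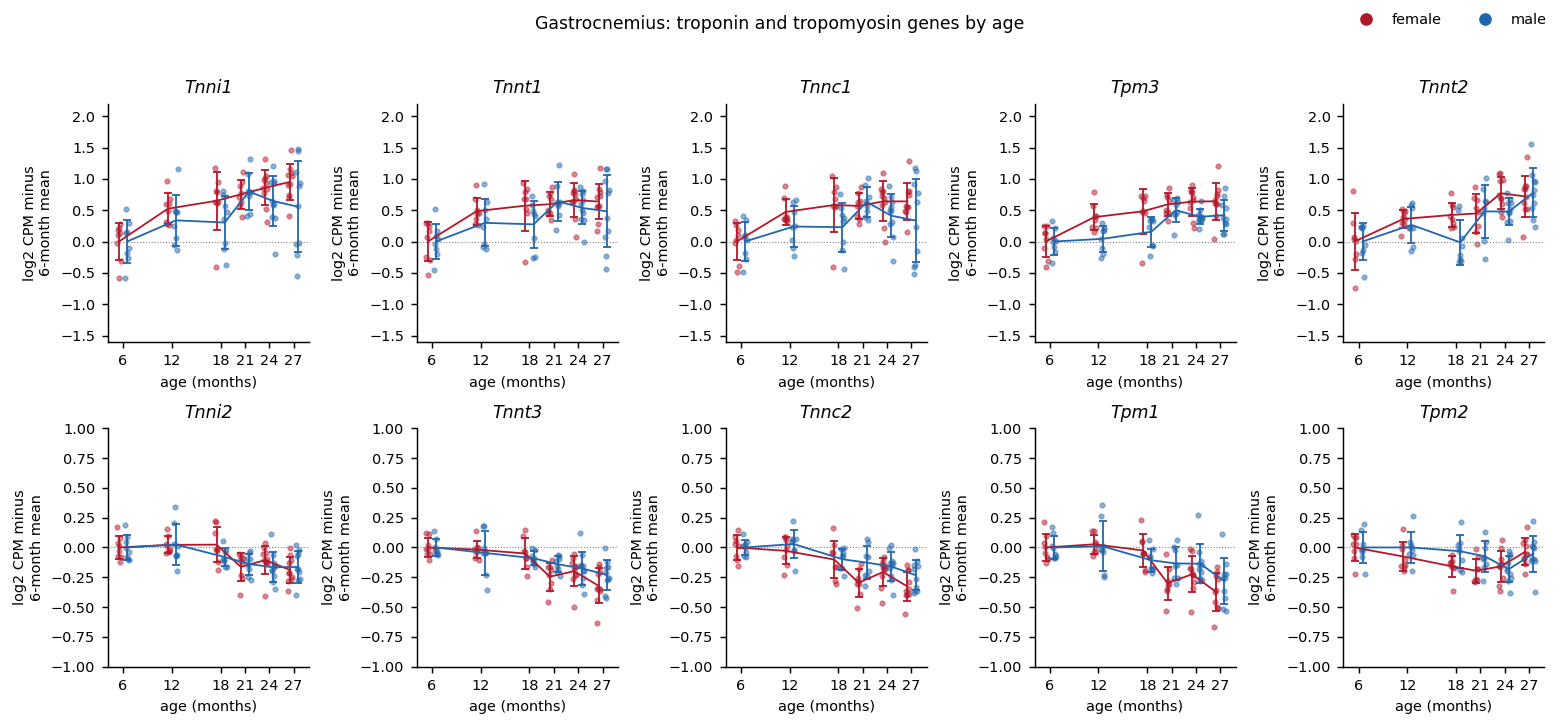
Log2 CPM minus the 6-month mean of the sex against age in months, for the 10 genes in gastrocnemius. Points are libraries, lines join the means and bars are 1 SD, in red for female and blue for male, and the lower panels have a narrower vertical axis than the upper ones. The upper 5 genes have means above 0 at 27 months, and of the lower 5 the means of Tnni2, Tnnt3, Tnnc2 and Tpm1 lie below 0 while those of Tpm2 are close to it.

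The slow shares of the gastrocnemius moved with these levels. For troponin I the female share was 1.30 to 2.51% at 6 months and 2.91 to 5.43% at 27 months, without overlap (means 1.94% and 4.17%). The male share was 0.408 to 0.985% and 0.531 to 2.28%, with overlap (means 0.709% and 1.25%). Female means went from 1.03% to 1.97% for troponin T, from 1.60% to 3.10% for troponin C and from 2.21% to 3.84% for Tpm3 among the tropomyosins. Over the 8 groups of muscle and sex the mean slow share was higher at 27 than at 6 months in all 8 for troponin T and for Tpm3, in 7 for troponin I and in 6 for troponin C. The exceptions were male diaphragm for troponins I and C and male soleus for troponin C. These are directions of means that were not tested, and in some groups the change lay within the spread. In female soleus the troponin I share went from 56.1 ± 6.22% to 64.0 ± 4.93% and the troponin T share from 34.2 ± 5.96% to 35.7 ± 3.86%. That change in troponin T lay within the spread. In male soleus the troponin I share was 37.7 ± 5.92% and 39.4 ± 11.5%, within the spread. In male diaphragm the troponin C share went from 8.70 ± 1.63% to 7.15 ± 1.06%.

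Tibialis anterior had almost none of the slow troponins at 6 months, and some old females had more. Tnni1 went from 0.605 to 1.64 CPM (median 1.33) to 0.682 to 10.6 CPM (median 3.07) (log2 1.64 ± 0.48, adjusted p = 0.00985). Of the 10 old libraries 4 lay within the range of the young ones and 6 above it. Tnnt1 went from 1.42 to 2.72 CPM (median 2.10) to 0.876 to 14.5 CPM (median 4.79) (log2 1.45 ± 0.45, adjusted p = 0.0144) and Tnnc1 from 0.676 to 2.53 CPM (median 1.03) to 0.460 to 9.22 CPM (median 2.66) (log2 1.48 ± 0.54, adjusted p = 0.0395). Replicates 5 and 8 were the 2 highest libraries for each of these 3 genes and for Tpm3. Myh7 measured 1.37 to 16.0 CPM at 6 months and 1.45 to 100 CPM at 27 months, with 100 CPM in replicate 5 and 91.9 CPM in replicate 8, and the 6 old libraries above the young range in Tnni1 were the 6 highest of the 18 in Myh7. Leaving out 1 library kept the calls of Tnni1 and Tnnt1 in all 18 fits, while Tnnc1 lost its call in 10 of them, with the highest adjusted p of 0.117 without replicate 5 at 27 months. By limma-voom none of the 3 passed the test, with Tnni1 at 1.12 (adjusted p = 0.126), Tnnt1 at 0.93 and Tnnc1 at 0.86. With the replicate number as a block in edgeR, Tnnt1 (adjusted p = 0.0558) and Tnnc1 (adjusted p = 0.0911) did not pass it. Myh7 changed by 1.97 ± 0.76 and did not pass the test (adjusted p = 0.055). Of the 9 other slow fibre genes, Myh7 among them, 1 was called higher and 2 lower, with a median log2 change of -0.03. Tpm3 changed by 0.28 ± 0.12 and did not pass the test either (adjusted p = 0.0789). The liver list moved too: 7 of its 8 genes rose and its summed level was 0.147 to 19.5 CPM (median 9.03) at 6 months and 0.840 to 579.5 CPM (median 68.7) at 27 months. The sum was 0.840 to 132 CPM in the 6 old libraries above the young range in Tnni1. In the 4 old libraries within that range it was 63.9 to 579.5 CPM. The part of the liver list in the result was not tested. In males the slow troponins did not pass the test in tibialis anterior, with Tnni1 at 0.59 ± 0.25 (adjusted p = 0.0951), Tnnt1 at 0.17 ± 0.23 and Tnnc1 at 0.20 ± 0.29.

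**Figure D4:**
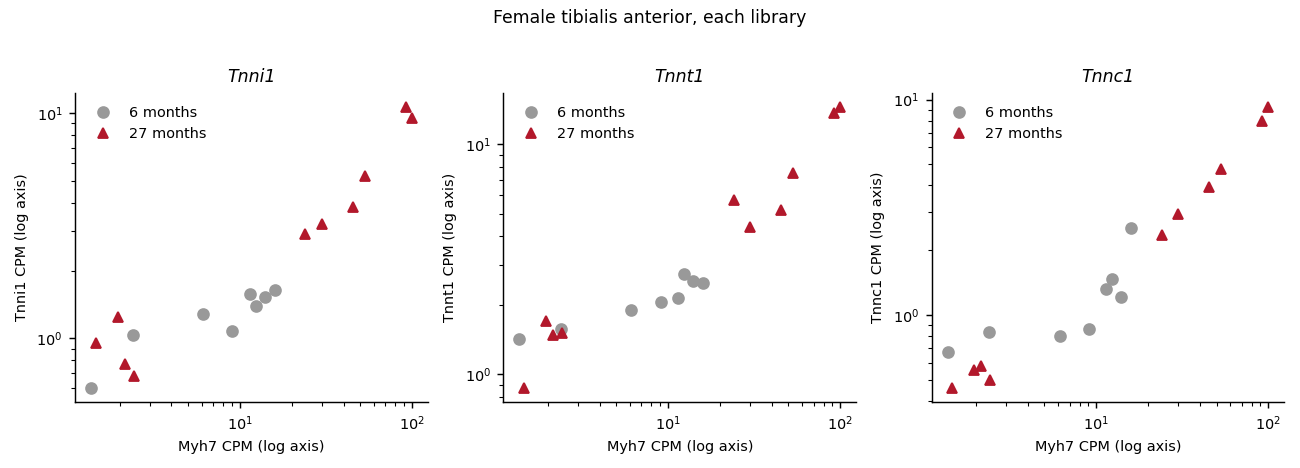
Tnni1, Tnnt1 and Tnnc1 against the slow myosin heavy chain Myh7 in each female tibialis anterior library, both in CPM on log axes. Grey circles are the 8 libraries at 6 months and red triangles the 10 at 27 months, of which 4 lie at the low end of Myh7 and 6 above all young libraries.

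Tpm2 was lower in tibialis anterior of old females. It went from 3697 to 4179 CPM (median 3919) to 3345 to 3679.9 CPM (median 3561), without overlap (log2 -0.14 ± 0.04, adjusted p = 0.0193). With the replicate number as a block Tpm2 did not pass the test (adjusted p = 0.0636). It was also the 1 member called there at 18 months (-0.21, 4.53% of genes), 21 months (-0.17, 10.7%) and 24 months (-0.23, 16.3%). In males it changed by -0.06 ± 0.06 at 27 months and did not pass the test.

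Tnnt2 rose with age in both sexes in gastrocnemius and in males in tibialis anterior and diaphragm. In gastrocnemius it went from 0.264 to 0.771 CPM (median 0.449) to 0.463 to 1.12 CPM (median 0.751) in females (log2 0.70 ± 0.15, adjusted p = 0.00023) and from 0.397 to 0.699 CPM (median 0.621) to 0.687 to 1.72 CPM (median 1.01) in males (log2 0.81 ± 0.16, adjusted p = 0.000132). In male tibialis anterior it went from 0.386 to 0.733 CPM (median 0.597) to 0.672 to 1.07 CPM (median 0.973) (log2 0.69 ± 0.15, adjusted p = 0.00114). The ages overlapped in all 3. In female tibialis anterior the change was 0.38 ± 0.16 (adjusted p = 0.0777), and in soleus it was -0.01 ± 0.16 in females and 0.19 ± 0.32 in males, none of which passed the test. At 24 months Tnnt2 and Tpm3 were the 2 members called in male tibialis anterior (15.4% of genes).

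In male diaphragm Tnnt2 went from 0.0261 to 0.560 CPM (median 0.261) to 0.413 to 1.23 CPM (median 0.690) (log2 1.33 ± 0.44, adjusted p = 0.0488), and at 21 months it was the 1 member called (1.91, adjusted p = 0.00884, 10.7% of genes). At 21 months it did not pass the test without the liver-rich libraries (1.46 ± 0.46, adjusted p = 0.0635), but did without those low in Acta1 (1.76 ± 0.47, adjusted p = 0.011). The lowest 6-month library, again replicate 2, was the one with the lowest Acta1 and held 1 Tnnt2 count. The change at 27 months was 1.26 without the liver-rich libraries (adjusted p = 0.0373) and 1.12 without those low in Acta1, where it did not pass the test (adjusted p = 0.0867). Leaving out 1 of the 18 libraries of these ages lost the call in 14 cases, with adjusted p up to 0.102 without replicate 8 at 27 months. Where blocks of adjoining sample numbers from the labels entered as a covariate, the change was 0.88 (adjusted p = 0.546). Without the libraries low in Acta1 the members called in male diaphragm were Tnni1 at -0.60 ± 0.17 (adjusted p = 0.0234) and Tnnc1 at -0.41 ± 0.14 (adjusted p = 0.0435), which with all libraries stood at -0.48 ± 0.28 (adjusted p = 0.293) and -0.31 ± 0.17 (adjusted p = 0.247). The summed cardiac list was 0.444 to 12.2 CPM (median 7.96) at 6 months and 1.52 to 6.17 CPM (median 3.94) at 27 months in male diaphragm, where of its 5 tested genes 0 rose and 1 fell (Sbk2). At these levels a library holds few Tnnt2 counts, which limits the precision.

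**Figure D5:**
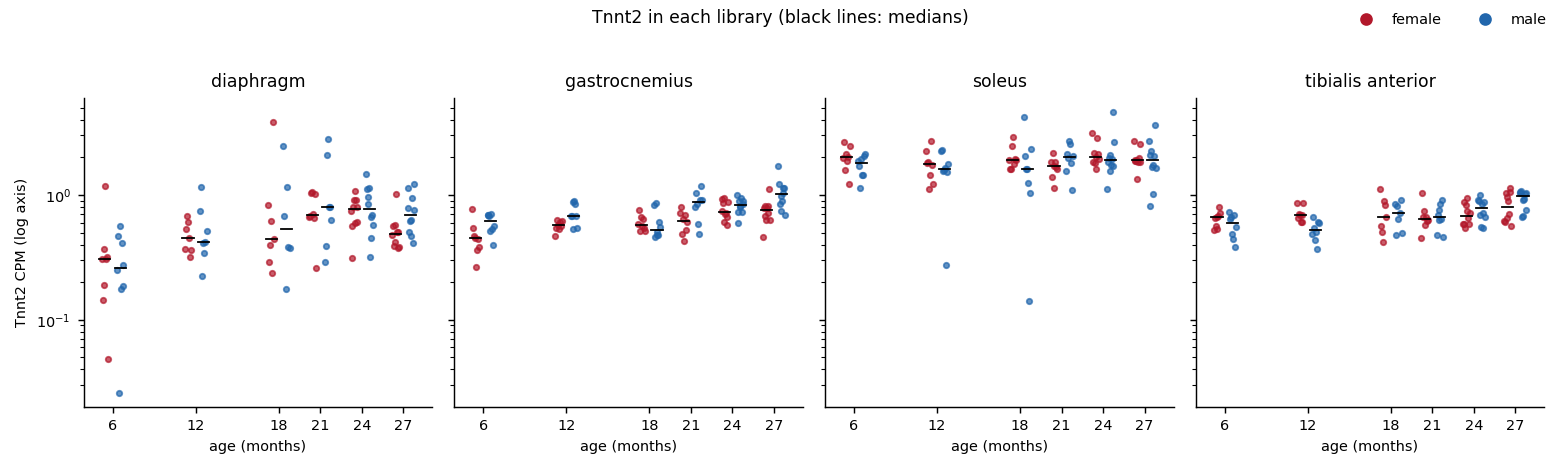
Tnnt2 in CPM on a log axis against age in months in each muscle. Points are libraries, red for female and blue for male, and black lines are medians. Soleus has the highest medians at each age, and the diaphragm has the widest spread at 6 months, from 0.0261 to 1.18 CPM.

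In female soleus Tnni1 was the 1 member called at 27 months, from 416 to 775 CPM (median 574) to 586 to 825 CPM (median 692), with overlap (log2 0.29 ± 0.09, adjusted p = 0.0178). Without replicate 0 at 6 months the change was 0.23 and did not pass the test (adjusted p = 0.0747). At 18 months (5.68% of genes) and 24 months (23.3%) it was called together with Tpm3, and at 21 months no member was (22.7%), although DESeq2 called Tnni1, which passed an unadjusted p below 0.05. Tnnt1 (0.01 ± 0.09) and Tnnc1 (-0.06 ± 0.09) did not pass the test there. In male soleus Tnni1 stood at -0.06 ± 0.15, and in female diaphragm at 0.13 ± 0.29.

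A slope on age through all 6 ages was called for 9 of 10 members in gastrocnemius of females (36.3% of genes) and of males (30.6%), for all but Tpm2. Over the 21 months the slope of Tnni1 amounted to 0.88 log2 units in females and 0.70 in males, and that of Tnnc1 in males to 0.47 (adjusted p = 0.0234). In males the slope of Tnnc1 did not pass the test by limma-voom (adjusted p = 0.0603), nor did that of Tpm1 without the 27-month libraries (adjusted p = 0.087). Slopes were also called for Tnni1, Tnnt1 and Tpm2 in female tibialis anterior (29.7%), Tnni1 and Tnnt2 in male tibialis anterior (22.8%), Tnni1 in female soleus (29.4%) and Tnnt2 in male diaphragm (8.92%). The last had an adjusted p of 0.0266 without the liver-rich libraries, and did not pass the test without those low in Acta1 (adjusted p = 0.0526), by limma-voom (adjusted p = 0.0547) or with the run of sample numbers as a covariate (adjusted p = 0.113). Limma-voom did not call the slopes of Tnni1 and Tnnt1 in female tibialis anterior (adjusted p = 0.132 and 0.243). Both calls were also lost when 27 months was left out (adjusted p = 0.225 and 0.312). Tnni1 in male tibialis anterior (adjusted p = 0.0493) lost its call in the same way (adjusted p = 0.462). Its call was lost too on the logarithm of age, unfiltered, with the run covariate or under a replicate block (adjusted p 0.0615 to 0.113). No slope was called in male soleus (5.78%) or female diaphragm (5.86%). At an unadjusted p below 0.05 the slopes of 2 members passed in male soleus and of 0 in female diaphragm, and limma-voom called none. For the 14 cases of a member called with over 1.5-fold at some age, a constant, a line and a logistic curve on the logarithm of age were compared by the Bayesian information criterion. A line was chosen for Tnni1, Tnnt1, Tnnc1, Tpm3 and Tnnt2 in female gastrocnemius, for Tnni1, Tnnt1 and Tnnt2 in male gastrocnemius and for Tnnt2 in male diaphragm. Tnnt2 in male tibialis anterior took a late logistic curve with its inflection at 27 months, the edge of the ages, and a line with margins of the criterion of 10 and 4 in place of 6 and 2 or with age in months. With these wider margins Tnni1 and Tnnt1 in male gastrocnemius took no class. Tnnc1 in male gastrocnemius and Tnni1, Tnnt1 and Tnnc1 in female tibialis anterior took no class.

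A call in 1 muscle and none in another does not show a difference, so the change from 6 to 27 months was compared with that of the gastrocnemius within a sex. In females Tpm3 rose less in diaphragm (-0.59 ± 0.15, adjusted p = 0.011), the 1 member called there (3.2% of genes). In female soleus 2 members were called (5.51%), Tpm3 at -0.47 ± 0.15 (adjusted p = 0.0454) and Tpm1 at 0.44 ± 0.14 (adjusted p = 0.0447). With age and replicate number as a block across the 4 muscles neither passed the test (adjusted p = 0.0626 and 0.0591), and without a filter on low counts neither did (adjusted p = 0.0523 and 0.0545). In males 1 member was called in diaphragm (3.44%), Tnni1 at -1.14 ± 0.31 (adjusted p = 0.0187). It stood at -1.11 ± 0.30 without the liver-rich libraries and at -1.25 ± 0.27 without those low in Acta1 (adjusted p = 0.00109), where Tnnc1 (-0.83 ± 0.25) and Tpm3 (-0.53 ± 0.16) were called as well. Tpm3 in female diaphragm stood at -0.55 ± 0.15 without them (adjusted p = 0.0131). By limma-voom this was the 1 interaction that passed the test, and Tnni1 in male diaphragm stood at -0.80 (adjusted p = 0.215), Tpm3 in female soleus at -0.45 (adjusted p = 0.0899) and Tpm1 there at 0.45 (adjusted p = 0.0553). No member was called in male soleus (0.594%) or in tibialis anterior of females (0.57%) or males (0.0%). At an unadjusted p below 0.05 these numbers were 4, 3 and 0, and limma-voom called none. For the slow troponins of female soleus the differences were -0.66 ± 0.38 for Tnni1, -0.63 ± 0.34 for Tnnt1 and -0.71 ± 0.37 for Tnnc1, and they did not pass the test.

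Other contractile genes of the gastrocnemius had like directions at 27 months. Of 9 other slow fibre genes 6 rose and 0 fell in females (median log2 change 0.43 against 0.02 over all genes) and 3 rose and 0 fell in males (median 0.34 against -0.0029). Myh7 rose by 0.71 ± 0.14 and 0.59 ± 0.21, Casq2, a calcium buffer of the reticulum, by 0.43 ± 0.10 and 0.52 ± 0.14, and Atp2a2, the slow calcium pump, by 0.49 ± 0.12 and 0.34 ± 0.13. Of 11 other fast fibre genes 0 rose and 9 fell in females (median -0.19) and 1 rose and 7 fell in males (median -0.23). Among those that fell, Myoz1, a protein of the Z-disc, stood at -0.34 ± 0.06 and -0.38 ± 0.05 and the fast calcium buffer Casq1 at -0.39 ± 0.06 and -0.42 ± 0.08.

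Of 15 thin filament partners tested in gastrocnemius 2 rose and 3 fell in females (median -0.01) and 2 rose and 4 fell in males (median 0.02). Lmod2 rose by 0.71 ± 0.15 and 0.74 ± 0.13 and Klhl40, which stabilises nebulin and Lmod3, by 0.41 ± 0.06 and 0.54 ± 0.09, while Tmod4, a pointed-end cap, stood at -0.22 ± 0.05 and -0.27 ± 0.05. Of 14 regulators of fibre type 3 rose and 3 fell in females and 2 rose and 3 fell in males, with Sox6, a repressor of slow genes, at -0.28 ± 0.07 and -0.33 ± 0.06. All 10 genes of a denervation list rose in both sexes, and Runx1 rose by 1.95 ± 0.15 and 2.16 ± 0.19. Of 7 developmental genes tested 4 rose and 0 fell in females and 5 rose and 0 fell in males, with the fetal receptor subunit Chrng at 4.22 ± 0.57 and 4.35 ± 0.70. Chrng and Myog stand on both this list and the denervation list. Of 3 cardiac markers tested 1 rose in females (Ryr2) and 0 in males, of 7 smooth muscle markers 1 fell in each sex (Lmod1), and of 8 liver markers none rose in females and 1 fell in males (Mup3).

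In the other muscles the same lists gave other counts. Of all genes, 21.9% were called at 27 months, in either direction, in female and 17.8% in male tibialis anterior. The share was 18.8% in female and 2.85% in male soleus, and 1.61% in female and 8.65% in male diaphragm. Denervation genes rose in number 9 of 10 in tibialis anterior of each sex, 6 in female soleus, 8 in male soleus, 3 in male diaphragm and 0 in female diaphragm. Other slow fibre genes were called 1 higher and 2 lower in female tibialis anterior, 1 higher in female soleus, and not at all in male tibialis anterior, male soleus or diaphragm. Other fast fibre genes were called 1 higher and 1 lower in tibialis anterior of each sex, 2 higher in female soleus, 1 lower in male diaphragm, and not at all in male soleus or female diaphragm. Thin filament partners were called 4 higher in female soleus, 4 higher and 1 lower in male tibialis anterior, 1 higher and 2 lower in female tibialis anterior, and not at all in male soleus or diaphragm.

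Likeness in log2 CPM was taken over the 48 means of muscle, sex and age. The 5 genes most like each slow or fast troponin, or Tpm1, were mainly other members and fibre type genes. Of the 5 most like Tpm2, Tpm3 or Tnnt2, most were neither. Among 13985 genes the genes most like Tnni1 included Tnnc1 (Pearson r = 0.997), Tnnt1 (0.991), Myh7 (0.982) and Myl2 (0.977). Tnnc2 was most like Myoz1 (0.996), Tnni2 (0.995), Rxrg (0.993), Mylpf (0.993) and Prr33 (0.992). Tpm2 was most like Myh6 (0.976) and Myl10 (0.976), and Tnnt2 like Actn2 (0.945) and Hspb7 (0.944). With the mean of each muscle and sex subtracted, so that age is what varies, Tnni1 was most like Tnnc1 (0.920), Tnnt1 (0.897) and Myh7 (0.873), and Tnni2 like Tnnc2 (0.931). After each other, the genes closest to Tnni2 and Tnnc2 were neither members nor listed fibre type genes. Tnnt2 was then most like Zfand2a (0.789), and Tnni1 and Tnnt3 had r = -0.066. These means share scaling, and the values are descriptions.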

How the data were processed

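The authors made 1 table of whole-number read counts per gene symbol for each library, and these deposited counts are the unit used here. Per the labels and the study's methods, ribosomal RNA was removed from total RNA, strand-specific libraries were sequenced as paired reads, and an ArrayStudio pipeline (version not given in the sources used here) counted them on mm10 with gene models that the authors built in house from RefSeq. Each table held 25091 lines, and 633 lines of the 329 symbols on more than 1 line were left out (0.0335% of all counts), none of them a member. Depth was 38583802 to 300089909 counts per library.

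Groups were muscle, sex and age from the labels, 1 library per mouse and muscle. Counts were tested with edgeR 4.0.16 in R 4.3.3: filterByExpr on low counts, scaling by trimmed mean of M values, quasi-likelihood F-tests and Benjamini-Hochberg adjustment over all genes tested, with a call at adjusted p below 0.05. Ages and slopes were fitted per muscle and sex, muscles and the interaction of muscle and age per sex, and the sexes per muscle. Standard errors were derived from the log2 change and the F statistic, and can be off where the change is very small. The slow share was taken per kilobase of exon within a library and not tested. Promoters were from RefSeq, and gene lengths and positions were from the basic GENCODE annotation. The scripts were tested on simulated data. Alternatives were limma-voom (limma 3.58.1), DESeq2 1.42.0 for ages and sexes, its size factors in edgeR, no filter, Bonferroni adjustment, a fold change above 1.5, the replicate number as a block, the run of sample numbers as a covariate, the logarithm of age, no 27-month libraries, each library left out, other margins of the curve choice, and shares without length. The fits without liver-rich libraries and without libraries low in Acta1, and the shares per coding length, were chosen after seeing the data.

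The members and gene lists were chosen with earlier results of these data known. All 10 members were tested in every comparison, but not each of them is named in the text for each. Of each list the counts called and up to 4 genes with the lowest adjusted p are given, and likeness was ranked by Pearson correlation over 48 group means for genes with at least 1 CPM in some group. Genes that these choices would name but that are withheld are not reported here.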

Additional observations from a re-analysis of the deposited data

Results flagged for a closer look

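For each member called at 27 against 6 months the libraries of both ages were searched for 1 that lay far from the rest, in 48 groups on the log2 scale, and chance alone sets off this search in about 1 in 20 groups. In 6-month male diaphragm the gap from the lowest Tnnt2 library (0.0261 CPM) to the next (0.176 CPM) was 0.622 of the whole range of the 8 libraries. In 6-month female tibialis anterior the gap from the lowest Tnni1 library (0.605 CPM) to the next (1.03 CPM) was 0.53 of the range of 8.

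Changes from 6 to 27 months differed between muscles of 1 sex in 4 cases. Against gastrocnemius the change of Tpm3 differed by -0.59 in female diaphragm (edgeR adjusted p = 0.011) and by -0.47 in female soleus (adjusted p = 0.0454), that of Tpm1 by 0.44 in female soleus (adjusted p = 0.0447) and that of Tnni1 by -1.14 in male diaphragm (adjusted p = 0.0187).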

How the results depend on the processing

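No direction of a called member turned under any alternative run. The counts of members called at 27 months in the order of female gastrocnemius, female soleus, female tibialis anterior, male diaphragm, male gastrocnemius and male tibialis anterior were 9, 1, 4, 1, 8 and 1. They became 5, 0, 0, 0, 0 and 0 with Bonferroni adjustment. With a fold change above 1.5 as well, female gastrocnemius kept a count of 5 (765 of 15376 genes), female soleus 0 (634 of 15358) and male gastrocnemius 2 (824 of 15227). Female tibialis anterior had 1 by limma-voom, and male diaphragm had 0 by limma-voom, with DESeq2's size factors, without a filter and with the run of sample numbers as a covariate, and 2 without the libraries low in Acta1. Leaving out 1 library at a time gave 9 to 9, 0 to 2, 3 to 5, 0 to 2 and 7 to 9 members in the first 5 groups; male tibialis anterior was not run because that would have passed the limit of 100 fits. The 47 calls at 12 to 24 months became 2 with Bonferroni adjustment and 15 with the fold limit. Other counts under these stricter limits, here and below, are given without the share of all genes.

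Slopes moved too. With Bonferroni adjustment the counts were 0 in female soleus, 0 in female tibialis anterior, 0 in male diaphragm, 2 in male gastrocnemius and 1 in male tibialis anterior, and with the fold limit they were 3 in female gastrocnemius, 0 in female soleus, 2 in male gastrocnemius and 1 in male tibialis anterior. Female soleus had 2 on the logarithm of age and 2 without the 27-month libraries. Female tibialis anterior had 1 by limma-voom and 1 without the 27-month libraries. Male diaphragm had 0 by limma-voom, with the run covariate and without the libraries low in Acta1. Male tibialis anterior had 1 in place of 2 without a filter, with the run covariate, on the logarithm of age and without the 27-month libraries. Of 3 female interactions of muscle and age 1 was called by limma-voom, 1 without a filter, 0 with Bonferroni adjustment and 1 with the fold limit. The 1 male interaction became 0 by limma-voom, 0 with Bonferroni adjustment and 3 without the libraries low in Acta1. The 8 members called between the sexes in soleus became 4 with Bonferroni adjustment and 2 with the fold limit. The cause of these shifts was not tested, apart from the stricter thresholds.

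The labels do not say that a replicate number marks a mouse, and not every same-numbered pair deviated together, so no block was used in the values reported. Of same-numbered limb libraries of 1 sex and age, those of gastrocnemius and tibialis anterior deviated together with r above 0.1 in 82 of 102 pairs (median r 0.263 against -0.0365 for different numbers), those of soleus and tibialis anterior in 74 of 101 (0.19 against -0.0274) and those of gastrocnemius and soleus in 66 of 103 (0.181 against -0.0355). With diaphragm the counts were 26 to 37 of 97 or 98 pairs, for different ages 332 of 939 and for the sexes 73 of 202. With the replicate number as a block the counts moved to 1 in female tibialis anterior and 0 in male diaphragm at 27 months, 1 slope in male tibialis anterior, 1 female interaction and 1 member between the sexes in tibialis anterior. Depth limited Tnnt2 most, with 1 count in its lowest library.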

Other observations

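The embryonic myosin heavy chain Myh3, which like Tnnt2 is used by developing muscle, rose from 6 to 27 months in all 8 groups of muscle and sex, where Tnnt2 was called in 4. The sources used here do not say whether the 4 muscles came from the same mice, so these groups may not be independent. In soleus Myh3 rose by 1.78 ± 0.23 on the log2 scale in females and 1.61 ± 0.28 in males, and Tnnt2 did not pass the test there. In diaphragm it rose by 2.29 ± 0.56 in females and 2.83 ± 0.79 in males, where it was 2.23 ± 0.75 without the liver-rich libraries (edgeR adjusted p = 0.0347) and did not pass the test without those low in Acta1 (2.08 ± 0.76, adjusted p = 0.0618). The female value was 2.29 ± 0.57 without the latter. Myh3 rose in male tibialis anterior by 1.20 ± 0.17. The difference between the changes of Myh3 and Tnnt2 was not tested.

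The cardiac troponin I gene Tnni3, the neighbour of Tnnt1, had medians of 0.12 CPM in diaphragm, 0.0575 CPM in gastrocnemius, 0.0679 CPM in soleus and 0.0546 CPM in tibialis anterior over all ages and both sexes, and 0 in some libraries of each. Tpm4, the tropomyosin of non-muscle cells, had medians of 89.7 CPM in diaphragm, 58.4 CPM in soleus, 38.7 CPM in tibialis anterior and 35.0 CPM in gastrocnemius. Tpm4 passed the test at 27 months in none of the 8 groups by edgeR, nor at an unadjusted p below 0.05, with log2 changes from -0.09 in female soleus to 0.27 in male gastrocnemius.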
